A study of Mus musculus with 10 samples.

Results

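A set of 9 genes that mark B cells and plasma cells was followed across the livers of 10 mice by bulk RNA sequencing, namely Cd79a, Cd79b, Ms4a1, Cd22, Cd72, Pax5, Ebf1, Ighm and Jchain. They were taken by gene symbol from a table of 55291 genes, all 9 were present, and all 9 passed the filter on low counts that left 17015 genes for testing. Every mouse was a female of 16 to 20 weeks carrying Cas9 behind a Lox-Stop-Lox cassette, and every mouse received an AAV8 virus that bore a guide RNA and Cre under the hepatocyte promoter TBG. The guide was either a non-targeting control (NTC) or 1 guide against Bap1 (sgBap1), a deubiquitinase gene. At 10 days after the virus the mice were given carbon tetrachloride (CCl4), a hepatocyte toxin, or the olive oil vehicle (Veh), and livers were taken 48 hours later. The groups were NTC-Veh (n = 2), sgBap1-Veh (n = 2), NTC-CCl4 (n = 3) and sgBap1-CCl4 (n = 3). Since Cre came from a hepatocyte promoter, the guide was not directed at B cells, and whole liver tissue was sequenced.

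B cells recognise antigen through a membrane immunoglobulin, whose first form has the mu heavy chain of Ighm, held together with the signalling partners Cd79a and Cd79b. Ms4a1 encodes CD20, Cd22 encodes an inhibitory co-receptor that binds sialic acid, and Cd72 encodes an inhibitory co-receptor of the C-type lectin family that other leukocytes can also carry. Pax5 and Ebf1 encode transcription factors that set and keep B-cell identity, and Ebf1 is also used outside the lineage, among others in fat-cell precursors and stromal cells. Jchain encodes the joining chain that links secreted IgM and IgA into polymers, and its RNA is abundant in plasma cells, the antibody-secreting form of the lineage. The liver holds B cells in its sinusoids and portal tracts and receives more leukocytes after injury. In whole liver RNA, a change in the number of B cells and a change in RNA per B cell cannot be told apart.

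In the GRCm38 annotation (GENCODE vM21), Cd79a lies on chromosome 7 from 24897381 to 24902197, Cd22 on chromosome 7 from 30865402 to 30880342, Cd79b on chromosome 11 from 106311341 to 106314762, and Ms4a1 on chromosome 19 from 11249675 to 11266241. Cd72 lies on chromosome 4 from 43446462 to 43454628 and Pax5 on the same chromosome from 44524757 to 44710487. Ebf1 spans 44617317 to 45008091 on chromosome 11, the Ighm constant gene spans 113418558 to 113422730 on chromosome 12, and Jchain spans 88519809 to 88527891 on chromosome 5. RefSeq promoter windows (GRCm38.p6, 250 bases before a RefSeq start) were at hand for 6 of the 9 genes, with 2 windows for Ebf1, which made 7. None was at hand for Cd79b, Ms4a1 and Ighm. The windows of Cd22 and Ebf1 lie inside the gene as GENCODE annotates it, so matches in them are not upstream of the whole gene. The octamer ATGCAAAT, known from immunoglobulin promoters, was in 0 of these 7 windows and in 1.6% of 32851 promoter windows of the genome, both strands read. The EBF1 palindrome (TCCC and GGGA set 2 bases apart), searched in this exact form, was in the Cd22 window alone of the 7 and in 0.779% of all windows. Sites that depart from these letters were not searched, so a window without a match may still hold one. The core GAGGAA, bound by the ETS factors PU.1 and SPIB, was in the windows of Cd72, Cd79a and Ebf1 (3 of 7) and in 23.3% of all windows. The bases upstream of the annotated gene are shown for Cd72, the gene that changed most often, and for Cd79a, a receptor subunit that passed the test in none of the comparisons, at chr4:43454629-43454876 and chr7:24897247-24897380. Capitals mark the ETS core, which both hold as TTCCTC, the reverse complement of GAGGAA. A match of letters is not a measured binding site.
Cd72: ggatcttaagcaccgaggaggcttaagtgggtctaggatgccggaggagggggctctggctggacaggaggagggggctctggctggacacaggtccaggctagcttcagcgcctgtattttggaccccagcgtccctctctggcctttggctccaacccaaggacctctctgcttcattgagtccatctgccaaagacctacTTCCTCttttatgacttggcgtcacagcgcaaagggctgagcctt
Cd79a: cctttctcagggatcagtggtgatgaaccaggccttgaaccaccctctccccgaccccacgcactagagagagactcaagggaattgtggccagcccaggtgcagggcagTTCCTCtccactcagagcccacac

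The libraries held 33048000 to 52200000 estimated counts, and levels are given as CPM, counts scaled to a common library total after TMM normalization, on which 3 counts corresponded to 0.0511 to 0.112 CPM. The 9 genes are rare transcripts in this tissue, with mean counts per library from 23.6 for Ebf1 to 822 for Ighm, against at least 2728 CPM for each of 5 hepatocyte markers in every liver. Of those 5 markers 4 (Alb, Apoa1, Ttr and Serpina1c) fell with CCl4 in NTC livers, with a median of -0.76 on the log2 scale. In sgBap1 livers 1 rose (Fgb) and 1 fell (Serpina1c) by edgeR's test, with 4 of the 5 estimates negative and a median of -0.56. DESeq2's Wald test called all 5 in sgBap1 livers, only Fgb as higher, beside 46.9% of the genes it tested. By library size alone 2 fell and 1 rose in NTC livers, with a median of -0.28, and the part of these markers in the levels of the 9 genes was not tested. Bap1, the targeted gene, was lower in both sgBap1 groups, at 18.5 ± 1.35 CPM (SD, n = 2) against 34.8 ± 0.0265 with vehicle, and at 19.3 ± 2.43 against 30.4 ± 1.00 (n = 3 each) with CCl4. Among the 10 livers, sgBap1-CCl4 replicate 2 stood apart, since it held 36.4 CPM of the fat-cell gene Adipoq and 34.5 CPM of Plin1 while the other 9 held at most 0.0425 and 0.0188 CPM. NTC-Veh replicate 2 had the lowest level of Cd79a, Cd79b, Ms4a1, Cd22, Pax5 and Ighm of all 10 livers, and of the summed T-cell and pan-leukocyte markers. Values without these livers are given where they end a call or move an estimate widely.

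CCl4 was the setting with the widest change. In NTC livers 5 of the 9 genes were higher after CCl4 at an adjusted p under 0.05 and none was lower, where 53.9% of all tested genes passed in either direction and 27.4% passed as higher. The 5 were Cd72, Cd22, Ighm, Cd79b and Ms4a1, and the median log2 fold change of the 9 was 1.00 against 0.03 for all tested genes. The other 4 genes had positive estimates that did not pass. In 7 of the 9 genes every NTC-CCl4 liver lay above both NTC-Veh livers, as 36.7% of all genes did. Without NTC-Veh replicate 2, which left 1 NTC-Veh liver, the median fell to 0.66. The calls of Cd79b, Ighm and Ms4a1 were lost in that fit, as given by gene below. Without NTC-CCl4 replicate 2 the count was instead 7, where 51.2% of all tested genes passed in either direction. In sgBap1 livers 1 of the 9 genes, Cd72, passed for CCl4 against vehicle, where 57% of all tested genes passed, 29% as higher, and the median of the 9 was -0.14. There 3 genes (Cd79b, Cd72 and Ebf1) were higher and 3 (Cd79a, Ighm and Jchain) lower without overlap between the groups, as 37.3% and 34.9% of all genes were. Scaling by library size alone put the median of all genes for CCl4 at 0.50 in NTC and 0.52 in sgBap1 livers, and it turned the negative estimates of Cd79a, Ms4a1 and Pax5 in sgBap1 livers to 0.16, 0.28 and 0.34.

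Loss of Bap1 with vehicle gave 1 call among the 9 genes, a higher Cd72, where 0.406% of all tested genes passed and 0.276% passed as higher. The 9 estimates were all positive, with a median of 0.74 on the log2 scale against 0.02 for all tested genes, and 4 had an unadjusted p under 0.05 (12.3% of all genes). Without NTC-Veh replicate 2, the liver lowest in most of these genes, 8 of the 9 estimates were positive and the median was 0.39. That fit left 1 NTC-Veh liver, and only its estimates are given here. In 6 of the 9 genes both sgBap1-Veh livers lay above both NTC-Veh livers, as in 21.7% of all genes. After CCl4 the comparison of sgBap1 with NTC gave 0 calls among the 9 genes by edgeR's quasi-likelihood test, with 0.329% of all genes called, 1 of the 9 at an unadjusted p under 0.05 (Ms4a1, as 14% of all genes) and 0 calls by DESeq2. There 8 of the 9 estimates were negative, with a median of -0.26. The plot of CPM by liver shows these levels gene by gene.

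**Figure D1:**
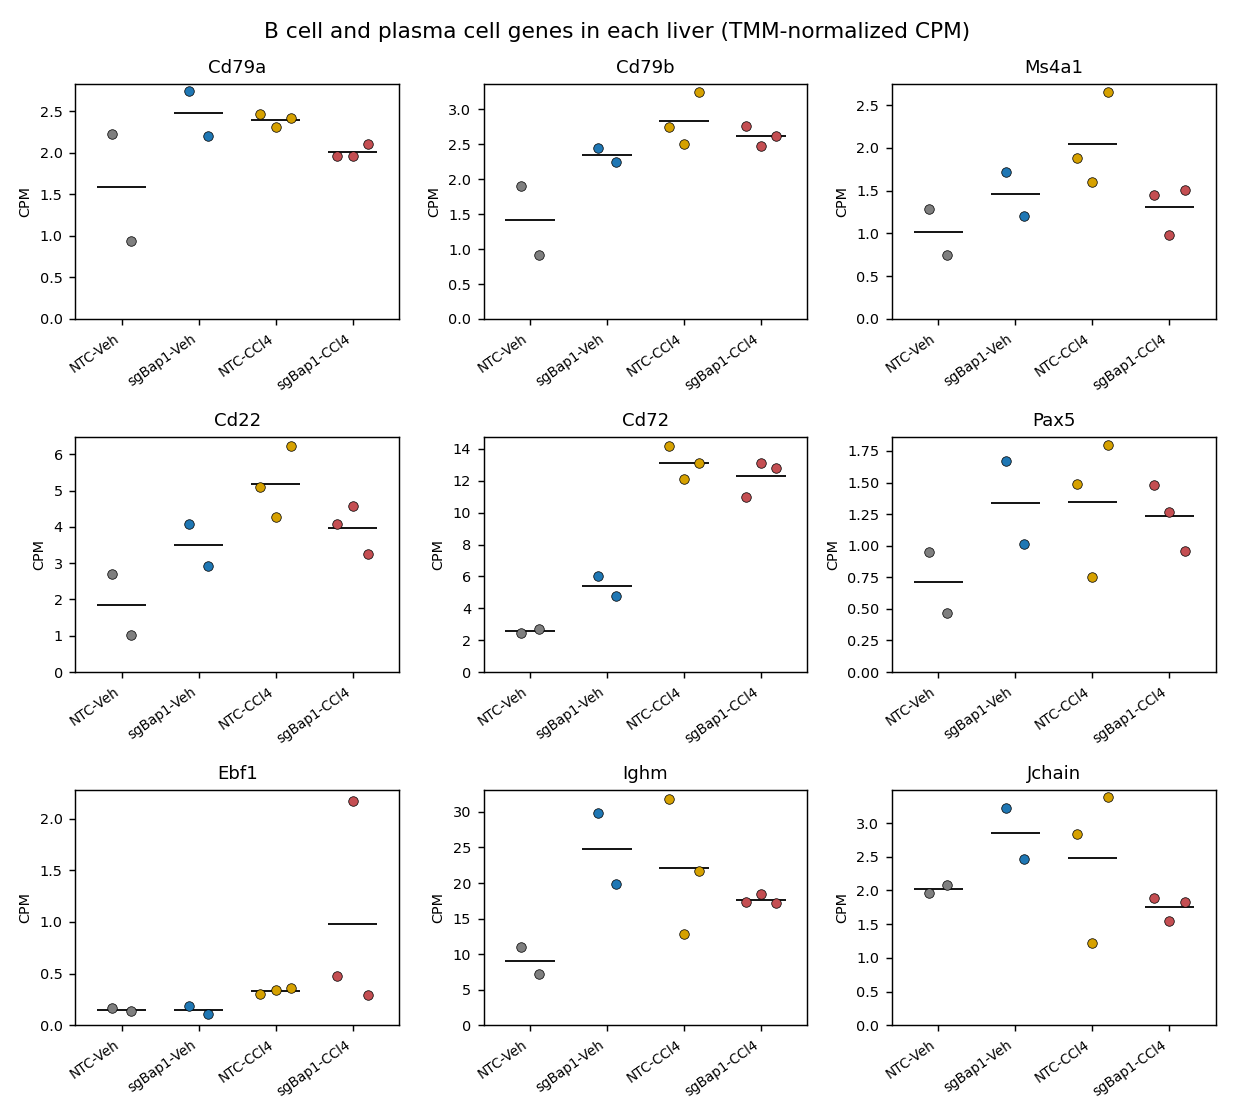
Normalized level (CPM, linear axis from 0) of each of the 9 genes in every liver by group; points are livers in replicate order and bars are group means. Cd72 sat between 2.48 and 6.06 CPM in the 4 vehicle livers and between 10.97 and 14.2 CPM in the 6 CCl4 livers, whereas the single high point of Ebf1, at 2.17 CPM, is sgBap1-CCl4 replicate 2.

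Among the subunits of the antigen receptor, Cd79a stood at 2.23 and 0.942 CPM in the NTC-Veh livers and at 2.75 and 2.21 CPM in the sgBap1-Veh livers. After CCl4 it stood at 2.47, 2.31 and 2.42 CPM in NTC livers and at 1.96, 1.97 and 2.10 CPM in sgBap1 livers. The 3 sgBap1-CCl4 livers lay below the 3 NTC-CCl4 livers and below both sgBap1-Veh livers, and the spread within NTC-Veh, from 0.942 to 2.23 CPM, was wider than either gap. None of the differences passed: on the log2 scale the estimate for CCl4 in NTC livers was 0.59 ± 0.29 (SE), with an adjusted p of 0.111, and sgBap1 differed from NTC under CCl4 by -0.26 ± 0.24, with an adjusted p of 0.674. The CCl4 estimate in NTC livers was 1.35 without NTC-Veh replicate 1 (adjusted p = 0.00350) and 0.11 without NTC-Veh replicate 2 (adjusted p = 0.735). The sgBap1 estimate with vehicle, 0.65 with all livers, was 0.16 without NTC-Veh replicate 2. Part of the Cd79a sequence (8.31% of its stretches of 50 bases) is also found in the predicted gene Gm32220, so reads from these stretches could have been divided between both genes.

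Its partner Cd79b stood at 1.91 and 0.914 CPM in NTC-Veh, 2.45 and 2.25 CPM in sgBap1-Veh, 2.75, 2.50 and 3.25 CPM in NTC-CCl4 and 2.76, 2.48 and 2.61 CPM in sgBap1-CCl4. All livers of the other groups lay above the NTC-Veh pair, and the CCl4 groups overlapped each other. Cd79b rose 2.00-fold with CCl4 in NTC livers (log2 fold change 1.00 ± 0.27, adjusted p = 0.0102), a call that was lost without NTC-Veh replicate 2 (0.57, adjusted p = 0.0905). With vehicle the sgBap1 estimate was 0.74 ± 0.30 (adjusted p = 0.360), or 0.30 without NTC-Veh replicate 2, and with CCl4 it was -0.11 ± 0.21 (adjusted p = 0.865).

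Ighm, the mu heavy chain, was the most abundant of the 9 genes. It stood at 10.9 and 7.20 CPM in NTC-Veh and at 29.8 and 19.8 CPM in sgBap1-Veh, so that the groups did not overlap. In NTC-CCl4 it stood at 31.9, 12.8 and 21.7 CPM, and in sgBap1-CCl4 at 17.3, 18.5 and 17.2 CPM, which lies within the spread of the NTC-CCl4 livers. Ighm rose 2.44-fold with CCl4 in NTC livers (log2 fold change 1.28 ± 0.37, adjusted p = 0.0171), and this call was lost without NTC-Veh replicate 2 (1.02, adjusted p = 0.125) and in a model of these groups alone (adjusted p = 0.0649). For sgBap1 with vehicle it had the largest estimate of the 9 genes, 1.45 ± 0.40, which did not pass edgeR's test (adjusted p = 0.171) but passed DESeq2's Wald test (adjusted p = 0.00268). In sgBap1 livers both vehicle values lay above the 3 CCl4 values, with an estimate of -0.49 ± 0.34 (adjusted p = 0.252).

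Ms4a1 stood at 1.28 and 0.748 CPM in NTC-Veh, 1.72 and 1.20 CPM in sgBap1-Veh, 1.88, 1.60 and 2.65 CPM in NTC-CCl4 and 1.45, 0.976 and 1.51 CPM in sgBap1-CCl4. The NTC-CCl4 livers were the highest group, above every sgBap1-CCl4 and NTC-Veh liver. Ms4a1 rose 1.99-fold with CCl4 in NTC livers (log2 fold change 0.99 ± 0.34, adjusted p = 0.0311), but not without NTC-Veh replicate 2 (0.66, adjusted p = 0.229) or without NTC-CCl4 replicate 3 (0.77, adjusted p = 0.0906). For sgBap1 with vehicle the estimate was 0.55, and 0.21 without NTC-Veh replicate 2. Between the guides under CCl4 the estimate was -0.63 ± 0.27 (adjusted p = 0.343), in which all 3 sgBap1 livers lay below all 3 NTC livers. Ms4a1 and Cd79a, 2 of the 9 genes, were lower without overlap there, where 10.2% of all genes were.

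The inhibitory co-receptor Cd22 stood at 2.695 and 1.03 CPM in NTC-Veh, 4.09 and 2.92 CPM in sgBap1-Veh, 5.10, 4.26 and 6.22 CPM in NTC-CCl4 and 4.09, 4.59 and 3.25 CPM in sgBap1-CCl4. Every NTC-CCl4 liver lay above every vehicle liver, while the sgBap1-CCl4 livers overlapped both the sgBap1-Veh and the NTC-CCl4 livers. Cd22 rose 2.77-fold with CCl4 in NTC livers (log2 fold change 1.47 ± 0.35, adjusted p = 0.00537), and without NTC-Veh replicate 2 it still passed at 0.94 (adjusted p = 0.0387). The sgBap1 estimate was 0.92 ± 0.39 with vehicle (adjusted p = 0.373), or 0.39 without NTC-Veh replicate 2 (adjusted p = 0.856), and -0.38 ± 0.28 with CCl4 (adjusted p = 0.579).

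Cd72 had the clearest separation between groups of the 9 genes. It stood at 2.48 and 2.69 CPM in NTC-Veh, 6.06 and 4.75 CPM in sgBap1-Veh, 14.2, 12.1 and 13.1 CPM in NTC-CCl4 and 10.97, 13.1 and 12.8 CPM in sgBap1-CCl4. The NTC-Veh livers were lowest, the sgBap1-Veh livers lay between them and the CCl4 livers, and the CCl4 groups overlapped. Cd72 rose 5.08-fold with CCl4 in NTC livers (log2 fold change 2.34 ± 0.16, adjusted p = 2.56e-06) and 2.26-fold in sgBap1 livers (1.18 ± 0.15, adjusted p = 7.58e-05), and both calls held in all alternatives and with each liver left out in turn. With vehicle it was 2.10-fold higher in sgBap1 than in NTC livers (1.07 ± 0.17, adjusted p = 0.0350), whereas under CCl4 the estimate was -0.10 ± 0.12 (adjusted p = 0.768). The vehicle call was near the threshold, with adjusted p from 0.05005 to 0.170 when any liver but sgBap1-CCl4 replicate 2 was left out, 0.0322 without that liver, and 0.0651, 0.0944 and 0.174 by library size alone, with the replicate number as a block and in a model of these groups alone.

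**Figure D2:**
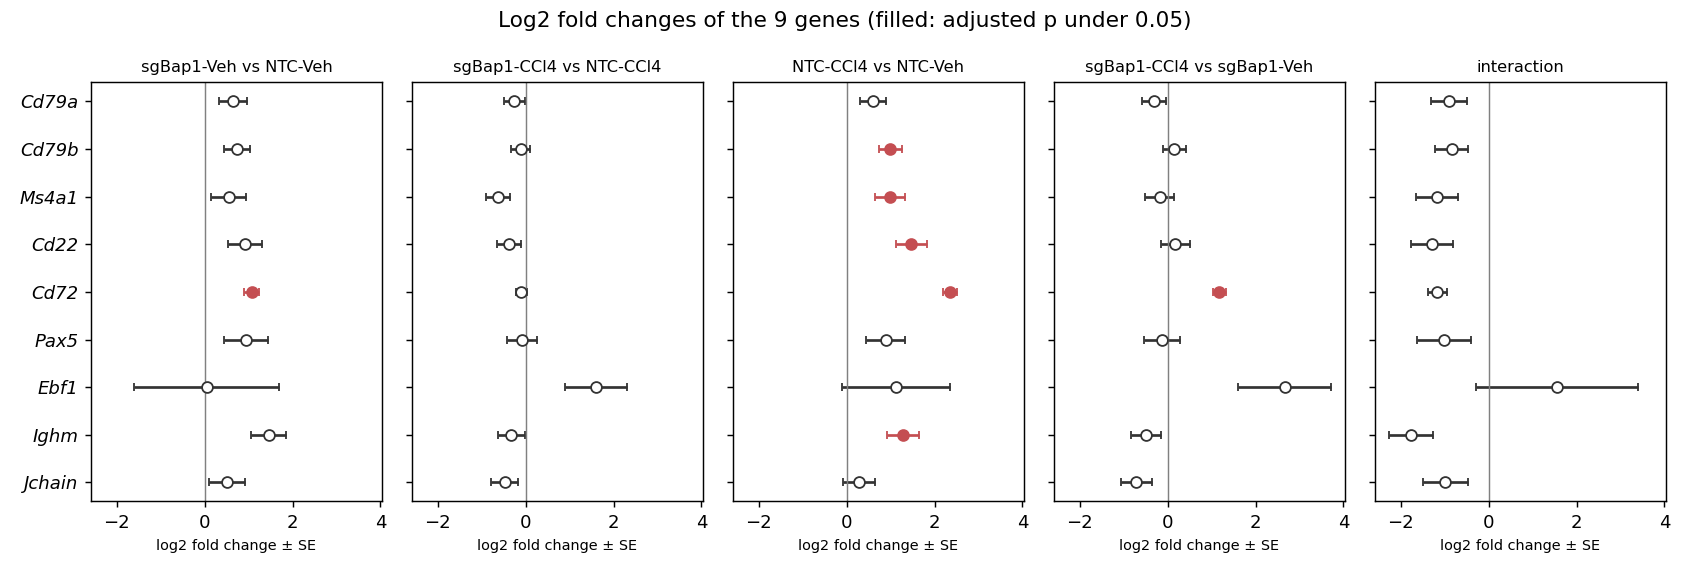
Log2 fold change (x axis, points) with its standard error (bars) of each gene in the 4 comparisons and the interaction, from edgeR's quasi-likelihood fit; filled points passed an adjusted p of 0.05. Cd72 passed in 3 comparisons, 5 genes passed for NTC-CCl4 against NTC-Veh, and none passed for sgBap1-CCl4 against NTC-CCl4 or for the interaction.

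Pax5, the factor that keeps B-cell identity, stood at 0.953 and 0.471 CPM in NTC-Veh, 1.67 and 1.01 CPM in sgBap1-Veh, 1.49, 0.751 and 1.796 CPM in NTC-CCl4 and 1.48, 1.27 and 0.957 CPM in sgBap1-CCl4. NTC-CCl4 replicate 2 lay between the NTC-Veh livers, and the sgBap1-CCl4 livers lay within the range of NTC-CCl4. No comparison passed, with estimates of 0.94 ± 0.50 for sgBap1 with vehicle (adjusted p = 0.507) and 0.89 ± 0.45 for CCl4 in NTC livers (adjusted p = 0.123). The latter was 1.20 without NTC-CCl4 replicate 2 (adjusted p = 0.0296) and 0.47 without NTC-Veh replicate 2 (adjusted p = 0.519). The former was 0.52 without NTC-Veh replicate 2.

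Ebf1 was near the lowest level that could be counted, at 6 and 5 counts (0.163 and 0.139 CPM) in NTC-Veh and 7 and 3 counts (0.188 and 0.112 CPM) in sgBap1-Veh. It stood at 0.298, 0.338 and 0.364 CPM in NTC-CCl4 and at 0.477, 2.17 and 0.298 CPM in sgBap1-CCl4, where replicate 2 gave 127 counts against 3 to 28 in the other 9 livers. That liver was not the highest of the 10 for any other of the 9 genes. In it 5 of the 6 fat-cell markers, Adipoq, Plin1, Lep, Retn and Cfd, stood at 0.291 to 144 CPM while each was at most 0.0425 CPM elsewhere, and the sixth, Cidec, stood at 56.3 CPM against 0.565 to 15.4. The summed fat-cell markers were 290 CPM there and 0.565 to 15.4 CPM in the other livers, and the summed stellate-cell and fibroblast markers 1531 CPM against 386 to 817. The part of these cells in the Ebf1 level was not tested.

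With all livers Ebf1 had a log2 fold change of 2.67 ± 1.06 for CCl4 in sgBap1 livers (adjusted p = 0.0557). Without sgBap1-CCl4 replicate 2 the estimate was 1.32 and passed (adjusted p = 0.0457), as it did at 3.01 without replicate 1 and at 3.05 without replicate 3 (adjusted p = 0.0291 and 0.0131). It also passed with the replicate number as a block (2.69, adjusted p = 0.0244). Between the guides under CCl4 the estimate of 1.59 ± 0.71 (adjusted p = 0.358) became 0.25 without replicate 2. The plot of Ebf1 beside fat-cell genes shows the same liver high in Ebf1, Adipoq and Plin1 and within the range of the other livers in Pax5.

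**Figure D3:**
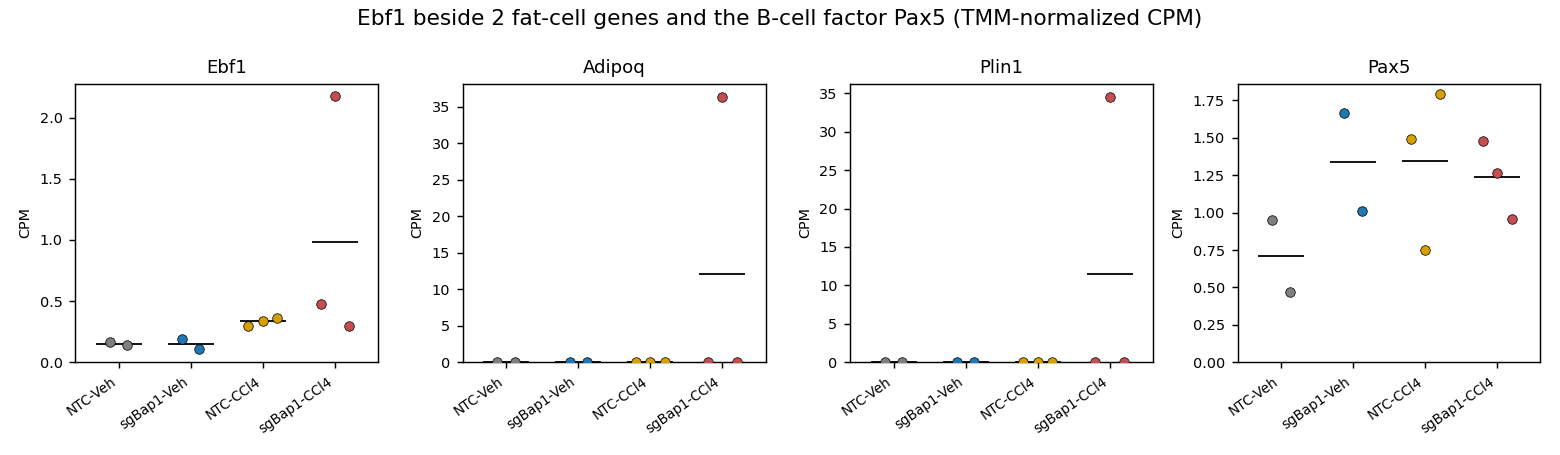
Level (CPM, linear axis from 0) of Ebf1, of the fat-cell genes Adipoq and Plin1 and of Pax5 in every liver by group; points are livers in replicate order and bars are group means. In sgBap1-CCl4 replicate 2 Ebf1 was 2.17, Adipoq 36.4 and Plin1 34.5 CPM, while Pax5, at 1.27 CPM, lay within the range of the other livers.

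Jchain, the joining chain of secreted IgM and IgA, stood at 1.96 and 2.08 CPM in NTC-Veh, 3.23 and 2.47 CPM in sgBap1-Veh, 2.84, 1.22 and 3.38 CPM in NTC-CCl4 and 1.89, 1.54 and 1.83 CPM in sgBap1-CCl4. The sgBap1-Veh livers lay above the NTC-Veh and the sgBap1-CCl4 livers, and the NTC-CCl4 livers spread over both sides of every other group. No comparison passed, with the largest difference at -0.71 ± 0.36 for CCl4 in sgBap1 livers (adjusted p = 0.111). Without NTC-CCl4 replicate 2 that comparison passed (-0.71, adjusted p = 0.0132), and so did the one in NTC livers (0.62, adjusted p = 0.0393).

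Other immunoglobulin genes were counted beside Ighm and Jchain. Of 12 constant-region genes 10 could be tested, and 3 rose with CCl4 in NTC livers, the kappa constant gene Igkc (log2 fold change 1.01 ± 0.35, adjusted p = 0.0341), Igha (0.62 ± 0.21, adjusted p = 0.0295) and Iglc3 (1.22 ± 0.45, adjusted p = 0.0418), while none fell. The count of 3 of 10 stands beside 27.4% of all tested genes called higher there. It was 0 without NTC-Veh replicate 2, 1 with the replicate block (Igkc) and 2 by DESeq2 (Igha and Igkc). In the other pairwise comparisons 0 of the 10 passed edgeR's test. At an unadjusted p under 0.05 there were 4 for sgBap1 with vehicle (12.3% of all genes) and 2 for sgBap1 under CCl4 (14%). There were 0 for CCl4 in sgBap1 livers, where 57% of all tested genes passed at an adjusted p. DESeq2 called 1 (Igha, with vehicle), 0 and 0, beside 3.79%, 3.08% and 46.9% of the genes it tested. Igkc stood at 7.79 and 5.65 CPM in NTC-Veh, 16.2 and 9.13 CPM in sgBap1-Veh, 14.2, 8.19 and 18.3 CPM in NTC-CCl4 and 8.70, 9.48 and 9.95 CPM in sgBap1-CCl4, so the sgBap1-CCl4 livers lay within the range of NTC-CCl4. Igha, the heavy chain of IgA, was higher in both sgBap1-Veh livers (3.47 and 2.58 CPM) than in both NTC-Veh livers (1.44 and 1.58 CPM), at 1.01 ± 0.23 with an adjusted p of 0.0869.

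The class-switched heavy chain Ighg2c stood at 13.8 CPM in NTC-CCl4 replicate 3 and at 1.00 to 3.55 CPM in the other 9 livers. Ighg3 was also highest in that liver, at 1.69 CPM against 0.119 to 1.11 CPM elsewhere. With that single liver high, the log2 estimate of Ighg2c for CCl4 in NTC livers was 1.61 ± 1.09 (adjusted p = 0.248), and -0.30 without it. Ighg1 was the constant gene that went the other way for sgBap1 with vehicle. It stood at 1.28 and 1.39 CPM in NTC-Veh and 0.323 and 0.823 CPM in sgBap1-Veh, with -1.29 ± 0.58 (adjusted p = 0.405). For CCl4 in NTC livers it also had the only negative estimate (-1.18), at 0.533, 0.582 and 0.651 CPM in NTC-CCl4. That fall did not pass with all livers but passed without sgBap1-CCl4 replicate 2, where 55.7% of all tested genes passed.

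The table also listed 346 immunoglobulin V segments, 183 of the heavy chain, 160 of kappa and 3 of lambda, of which 184 had a count and 13 could be tested singly. V segments are close copies of each other, so only their sum was compared. The sum stood at 5.28 and 4.96 CPM in NTC-Veh, 11.1 and 4.79 CPM in sgBap1-Veh, 10.0, 6.03 and 14.6 CPM in NTC-CCl4 and 7.78, 7.26 and 8.40 CPM in sgBap1-CCl4. All 6 CCl4 livers lay above the NTC-Veh livers, and the sgBap1-Veh livers lay on both sides of the NTC-Veh livers. A two-sided exact permutation test gave p = 0.2 for CCl4 in NTC livers, 0.8 for CCl4 in sgBap1 livers, 0.6 for sgBap1 under CCl4 and 1 for sgBap1 with vehicle. The smallest p these group sizes allow is 0.1, and 0.33 for 2 against 2, so no comparison could pass.

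**Figure D4:**
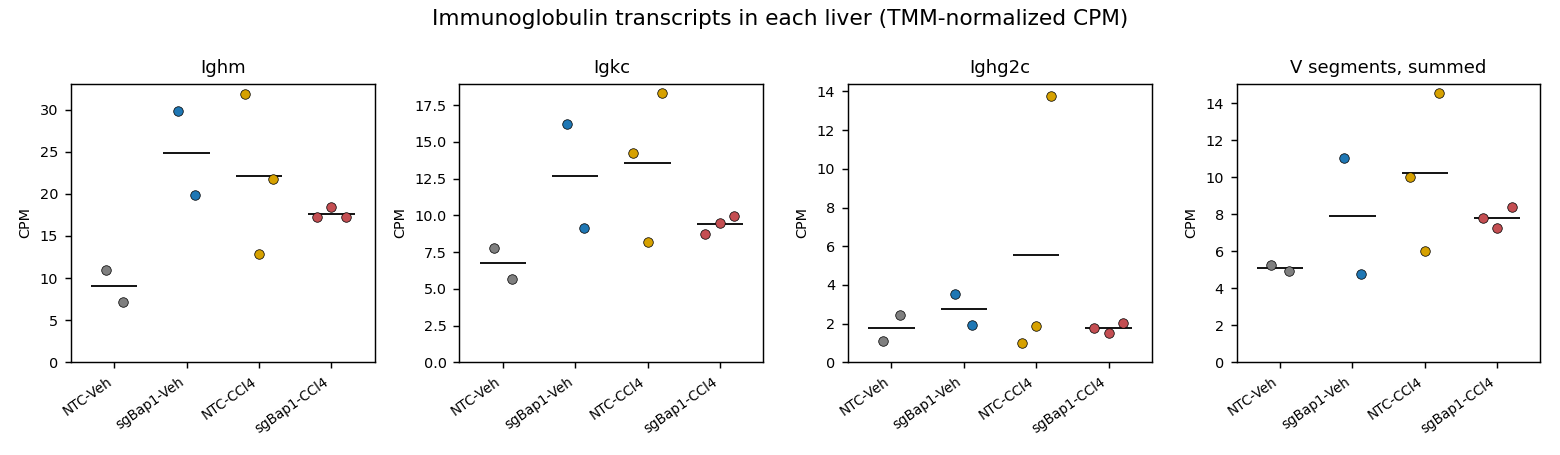
Level (CPM, linear axis from 0) of Ighm, Igkc, Ighg2c and the summed V segments in every liver by group; points are livers in replicate order and bars are group means. The 3 sgBap1-CCl4 livers were close together in all 4 panels (17.2 to 18.5 CPM for Ighm), and NTC-CCl4 replicate 3 was the highest liver for Igkc, Ighg2c and the V segments.

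Genes of plasma cells other than Jchain did not all follow it. Tnfrsf17, the plasma-cell receptor BCMA, had 0 to 3 counts in every liver and was not tested. Of the 13 plasma-cell genes tested, 7 rose and none fell with CCl4 in NTC livers, and 6 rose in sgBap1 livers, where 27.4% and 29% of all tested genes were called higher. The largest in NTC livers were Tnfrsf13b, the receptor TACI (log2 fold change 2.76 ± 0.34, adjusted p = 8.32e-05), Slamf7 (2.75 ± 0.27) and Prdm1, the factor BLIMP1 (2.08 ± 0.31). Mzb1, a chaperone of antibody assembly in B and plasma cells, stood at 0.319 to 0.619 CPM in all 10 livers. Xbp1, Sdc1 and Txndc5, which hepatocytes also express, stood at 141 CPM or more in each of the livers.

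Among 24 further surface and signalling genes of B cells, 15 rose and 1 (Cd81) fell with CCl4 in NTC livers, and 10 rose and 1 (Cd81) fell in sgBap1 livers, where 27.4% and 29% of all tested genes were called higher. Without NTC-Veh replicate 2 the counts in NTC livers were 12 and 0, and scaling by library size alone turned the estimates of Cd81, -0.35 and -0.30, to 0.12 and 0.17. The largest log2 fold changes in NTC livers were in Cd180 (3.04 ± 0.26), a Toll-like receptor relative, and in Plcg2 (2.7 ± 0.24) and Vav1 (2.45 ± 0.15), signalling genes that other leukocytes use as well. In the comparison of the guides 0 of the 24 passed edgeR's test, with vehicle or with CCl4. With vehicle 22 of the 24 estimates were positive and 14 had an unadjusted p under 0.05 (12.3% of all genes). There DESeq2 called 5 as higher (Syk, Bank1, Plcg2, Vav1 and Inpp5d), beside 3.79% of the genes it tested in either direction. Under CCl4 1 had an unadjusted p under 0.05 (14% of all genes) and DESeq2 called 0 (3.08% of the genes it tested).

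Of 12 other transcription factors of the lineage, 7 rose and 1 (Foxo1, -0.73, or -0.25 without a call by library size alone) fell with CCl4 in NTC livers, among them Spi1, which encodes PU.1 (2.20 ± 0.22), Ikzf1 (1.97 ± 0.26), Bcl11a (1.94 ± 0.39) and Pou2f2 (1.91 ± 0.27). In sgBap1 livers 5 rose and none fell, or 3 rose without sgBap1-CCl4 replicate 2. Irf8 was higher in sgBap1 than in NTC livers with vehicle (0.95 ± 0.16, adjusted p = 0.0418). That call did not hold when any of the 4 vehicle livers was left out, which left 1 liver in a group (estimate 0.91 without NTC-Veh replicate 2). It was also lost with the replicate block (adjusted p = 0.0944), with which 1 gene of all tested passed. DESeq2 called 3 of the 12 as higher with vehicle (Irf8, Spi1 and Pou2f2), beside 3.79% of the genes it tested. In the interaction it called 3 (Irf8, Foxo1 and Pou2f2), beside 2.7%, where edgeR's test called 0. Foxo1, which hepatocytes express too, was higher in sgBap1 than in NTC livers under CCl4, at 51.4, 51.8 and 54.8 CPM against 33.04, 26.8 and 27.1 CPM (0.86 ± 0.11, adjusted p = 0.0189). That call was lost without any 1 of the NTC-CCl4 livers (adjusted p = 0.0630 to 0.0920) or without sgBap1-CCl4 replicate 1 (adjusted p = 0.0694). Over all genes 1, 16 and 2 passed there without NTC-CCl4 replicates 1, 2 and 3. Without sgBap1-CCl4 replicate 1 it was 2, against 56 with all livers. DESeq2 called Foxo1 between the guides under CCl4 as well, alone of the 12, beside 3.08% of the genes it tested.

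Most genes of B-cell precursors were scarce, though Dntt and Il7r had mean counts of 206 and 150 per library. Of 8 such genes 3 could be tested, since Rag1, Rag2, Vpreb2 and Igll1 had at most 1 count in any liver and Vpreb1 at most 10. Vpreb3, a surrogate light chain partner, fell with CCl4 from 0.327 and 0.305 CPM to 0.0213, 0.0376 and 0 CPM in NTC livers (-3.70 ± 0.65, adjusted p = 3.65e-04), and from 0.323 and 0.225 to 0.0851, 0.0685 and 0.0638 CPM in sgBap1 livers (-1.90 ± 0.53, adjusted p = 0.00804), where the call was lost without sgBap1-Veh replicate 1 (adjusted p = 0.127) and by DESeq2 (adjusted p = 0.0623). The highest of these levels is 12 counts. Dntt, the terminal transferase of V(D)J joining, stood at 8.85 and 10.1 CPM in sgBap1-Veh and fell to 1.72, 0.753 and 3.06 CPM in sgBap1-CCl4 (-2.38 ± 0.50, adjusted p = 0.00314), with no call in NTC livers (-0.28 ± 0.48, adjusted p = 0.652). Il7r, the receptor of IL-7, which T cells carry too, rose with CCl4 in both (2.85 ± 0.43 and 1.87 ± 0.37). Between the guides under CCl4, Dntt was lower in sgBap1 livers (-1.53). DESeq2 called that difference, beside 3.08% of the genes it tested, and edgeR's test did not.

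Of the ligands that draw B cells or keep them alive, 9 of 10 could be tested. Tnfsf13, which encodes the survival factor APRIL, rose with CCl4 in NTC livers (1.804 ± 0.36, adjusted p = 0.00196) and in sgBap1 livers (1.73 ± 0.37, adjusted p = 0.00269). Tnfsf13b, which encodes BAFF, stood at 0.262 to 1.06 CPM in all livers and passed in no comparison. Cxcl12 fell in both (-1.14 ± 0.15 and -1.01 ± 0.15). Il7 rose with CCl4 in NTC livers (1.12 ± 0.33) and fell in sgBap1 livers (-0.85 ± 0.27, adjusted p = 0.0213), where the sgBap1-Veh pair was highest at 1.35 and 2.10 CPM. Its largest pairwise estimate was for sgBap1 with vehicle, 1.81 ± 0.35, without overlap between the groups, which did not pass edgeR's test (adjusted p = 0.0584) but passed DESeq2's (adjusted p = 0.00283). The fall in sgBap1 livers was lost without sgBap1-Veh replicate 2 (-0.52, adjusted p = 0.217) and by library size alone (-0.36). Ltb rose in NTC livers (1.25 ± 0.38). Neither Il7 (1.18, adjusted p = 0.0674) nor Ltb (0.69, adjusted p = 0.147) passed there without NTC-Veh replicate 2. The B-cell chemokine Cxcl13 ranged from 0.113 to 2.84 CPM among the 3 NTC-CCl4 livers and did not pass.

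Markers of other leukocytes moved in the same comparisons, in which 27.4% of all tested genes were called higher in NTC and 29% in sgBap1 livers. All 6 pan-leukocyte genes rose with CCl4, by a median of 2.33 on the log2 scale in NTC and 1.42 in sgBap1 livers, and their summed level was 46.7 to 121 CPM in the 4 vehicle livers and 263 to 325 CPM in the 6 CCl4 livers. Of 12 Kupffer-cell and macrophage markers 9 rose in NTC livers and 5 rose and 2 fell in sgBap1 livers, with summed levels of 326 to 944 CPM with vehicle and 1221 to 1841 CPM with CCl4. Of 12 T-cell markers 4 rose in NTC livers, at summed levels of 4.21 to 16.4 CPM with vehicle and 9.74 to 19.6 CPM with CCl4. In sgBap1 livers 0 of the 12 passed (1 at an unadjusted p under 0.05, 0 by DESeq2), where 57% of all tested genes passed at an adjusted p. Of 6 plasmacytoid dendritic-cell markers 5 rose with CCl4 in each guide group. Without NTC-Veh replicate 2 the counts in NTC livers were 6 of 6 pan-leukocyte genes, 9 of 12 macrophage, 0 of 12 T-cell and 3 of 6 plasmacytoid dendritic-cell markers, and without sgBap1-CCl4 replicate 2 the macrophage count in sgBap1 livers was 3 higher and 1 lower. The part of these other cells in the levels of genes they share with B cells, such as Cd72, Cd180, Spi1 and Tnfrsf13b, was not tested.

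With vehicle the same lists had positive median differences between sgBap1 and NTC livers, 0.92 for pan-leukocyte genes (1 of 6 called, Ptprc), 0.95 for macrophage markers (1 of 12 called, Csf1r) and 1.02 for T-cell markers (0 of 12 called, 5 at an unadjusted p under 0.05), beside 0.74 for the 9 B-cell genes. Of all tested genes 0.406% were called there and 12.3% had an unadjusted p under 0.05. DESeq2 called all 6 pan-leukocyte genes, 10 of the 12 macrophage markers and 0 of the 12 T-cell markers there, beside 2 of the 9 genes. Of all genes it tested there, DESeq2 called 3.79%. Without NTC-Veh replicate 2 the medians were 0.66, 0.73 and 0.46, beside 0.39, and neither Ptprc (adjusted p = 0.171) nor Csf1r (adjusted p = 0.266) passed, nor did they with the replicate block (adjusted p = 0.0891 and 0.115). Under CCl4 these medians were -0.02, -0.15 and -0.16, beside -0.26. The red blood cell markers Hba-a1, Hba-a2, Hbb-bs and Hbb-bt rose with CCl4 in NTC livers, in which replicate 2 had a sum of 2468 CPM against 580 to 1656 in the other livers. None of them passed without NTC-Veh replicate 2 or with the replicate block. That liver was the lowest of its group for 8 of the 9 genes, all but Ebf1, and the part of blood in these values was not tested. The plot of gene lists gives each tested gene beside its list's median.

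**Figure D5:**
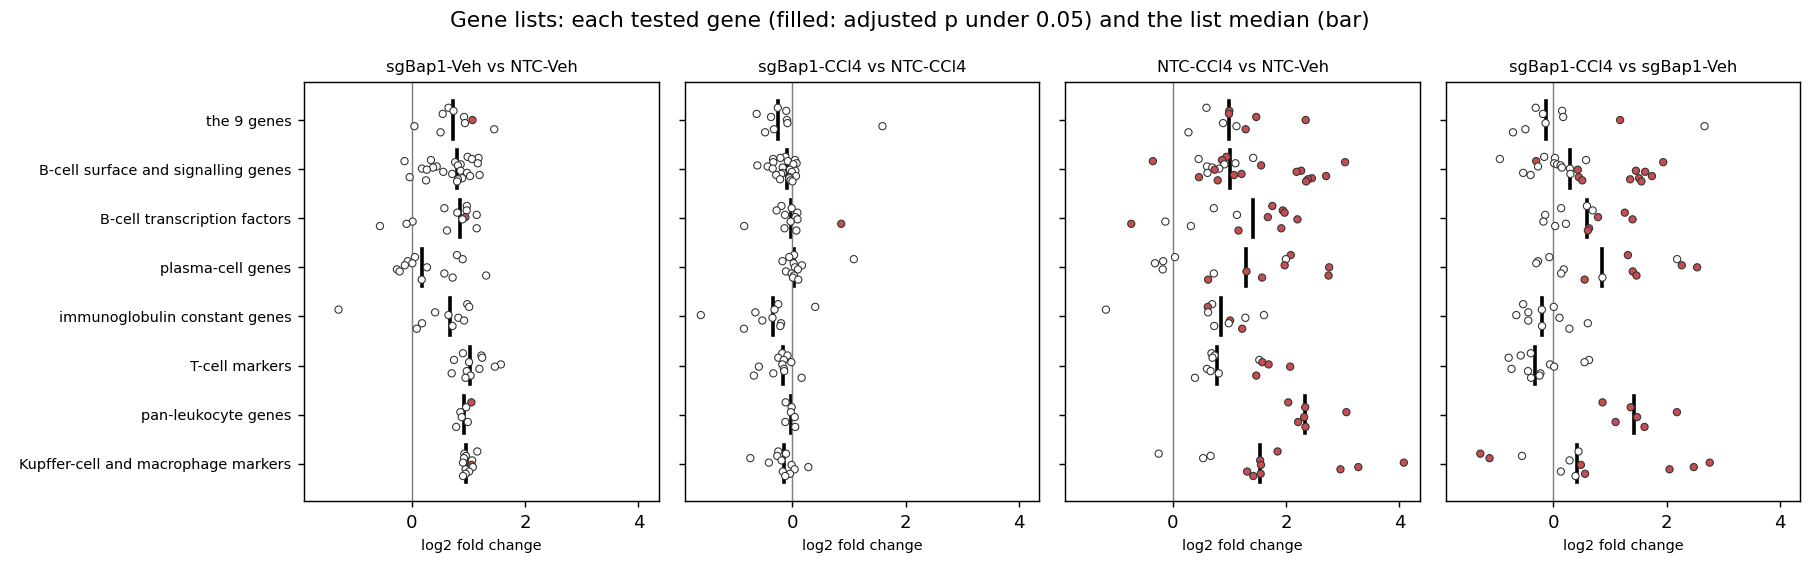
Log2 fold change (x axis) of every tested gene of 8 lists (y axis) in the 4 pairwise comparisons; filled points passed an adjusted p of 0.05 and bars are list medians. Pan-leukocyte genes had medians of 2.33 and 1.42 for CCl4 in NTC and sgBap1 livers, where the 9 genes had 1.00 and -0.14.

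The interaction, which tests whether the response to CCl4 differed between the guides, gave 0 calls among the 9 genes by edgeR's quasi-likelihood test, as it did among all genes (0% called). The estimate was negative for 8 of the 9 genes, with a median of -1.02 against -0.02 for all tested genes, and 6 had an unadjusted p under 0.05 (10.4% of all genes did). The median of the 9 was -0.77 without NTC-Veh replicate 2, with Cd79a at -0.42 instead of -0.91 and Cd79b at -0.41 instead of -0.84. The estimates of Cd72 (-1.17 ± 0.21, adjusted p = 0.0758) and Ighm (-1.78 ± 0.50, adjusted p = 0.238) had the lowest adjusted p of the 9 by edgeR. DESeq2's Wald test called both, at adjusted p of 6.79e-04 for Cd72 and 0.00776 for Ighm, where it called 2.7% of the genes it tested. The interaction rests on the vehicle groups of 2 livers each, and the 12 T-cell, 12 macrophage and 6 pan-leukocyte markers all had negative interaction estimates as well. Of these edgeR's test called 0, with 6, 11 and 6 at an unadjusted p under 0.05 (10.4% of all genes). DESeq2 called 0, 7 and 3, beside 2.7% of the genes it tested.

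To compare levels between genes, CPM was divided by the exonic length in kilobases. Per kilobase Ighm was highest in every group, at 4.81 ± 1.4 CPM per kb in NTC-Veh (SD, n = 2), 13.2 ± 3.74 in sgBap1-Veh (n = 2), 11.7 ± 5.04 in NTC-CCl4 (n = 3) and 9.37 ± 0.372 in sgBap1-CCl4 (n = 3). Ebf1 had the lowest mean in every group, at 0.0154 to 0.101 CPM per kb, below Pax5 (0.0804 to 0.152) and Ms4a1 (0.164 to 0.330). In sgBap1-CCl4 its livers ran from 0.0305 to 0.223 CPM per kb, across the ranges of Pax5 (0.108 to 0.167) and Ms4a1 (0.158 to 0.244), with replicate 2 the highest. Cd72 had rank 5 of the 9 in NTC-Veh, at 0.755 ± 0.0435 CPM per kb, rank 4 in sgBap1-Veh, and rank 2 in both CCl4 groups, at 3.84 ± 0.304 and 3.59 ± 0.339. In NTC-Veh the ranges of Cd79a (0.647 to 1.53), Cd79b (0.639 to 1.33), Jchain (0.779 to 0.826) and Cd72 (0.724 to 0.785) CPM per kb lay close together or overlapped. These levels come from the same livers, and the differences between neighbours in the order were not tested.

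Across the 10 livers the mean log2 CPM of Cd79a, Cd79b, Ms4a1 and Cd22 was set against every other tested gene. The livers share 4 groups and the low NTC-Veh replicate 2, so these correlations describe the samples and were not tested. Among the 10 closest genes were Il18bp (Pearson's r 0.954), Ifi214 (0.9496), Gm128 (0.949), Grap2 (0.949), Sfn (0.947), H2-Eb2 (0.942), H2-DMb2 (0.940), Bcl11b (0.937) and Rasgrp1 (0.933). All 10 had their lowest level in NTC-Veh replicate 2, as H2-DMb2 shows with 1.33 and 0.776 CPM in NTC-Veh, 2.85 and 1.57 CPM in sgBap1-Veh, 2.22, 2.05 and 2.52 CPM in NTC-CCl4 and 1.98, 1.63 and 1.96 CPM in sgBap1-CCl4. Of the other members, Pax5 (r 0.845), Ighm (0.797) and Cd72 (0.713) followed these 4 genes more closely than Ebf1 (0.293) and Jchain (0.279).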

How the data were processed

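Livers of 10 mice were sequenced as stranded, poly(A)-selected libraries with paired reads of 50 bases. The authors aligned reads with STAR 2.7.6a to GRCm38 and quantified genes with Salmon 1.4.0 on GENCODE vM25, per the study's methods and the submitters' processing notes, and the deposited table holds estimated counts (expected counts) per gene symbol, without normalization. Of the values, 9.22% were not whole, and they were rounded. The count model was edgeR 4.0.16 under R 4.3.3. Low genes were removed with filterByExpr, which kept 17015 of 55291, libraries were normalized by TMM (factors 0.786 to 1.24), and 1 model of the 4 groups was fitted with glmQLFit (robust = TRUE, legacy = FALSE). Each pairwise comparison, and the guide by treatment interaction, went through edgeR's quasi-likelihood test (two-sided). Benjamini-Hochberg values were computed over all tested genes and called under 0.05. Adjusted p-values in the text are from this test unless another is named. Summed V segments were compared as mean log2 CPM by an exact permutation test. DESeq2 1.42.0 gave the Wald test among the alternatives. Exonic lengths, positions and shared stretches of 50 bases come from GENCODE vM21, a release other than that of the counts, on the same build, with the promoter windows from RefSeq.

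Correlations used log2 CPM with a prior count of 2. Sample groups and replicate numbers come from the labels, which do not state litters or batches, and all columns of the table were used. Mice of a group differed by more than sampling noise (mean chi-square of 14.8 to 87.0 per gene). Fits were tested on simulated counts with known changes. The 9 genes and the other gene lists were chosen with earlier results of these data known. Besides the 9 genes and Bap1, the rule named those genes of the other lists that passed or had the largest changes, up to 4 per list and comparison, and the 10 genes most like the mean of Cd79a, Cd79b, Ms4a1 and Cd22. Further genes, among them Igkc in every liver, Ighg2c, Ighg3, Ighg1, Mzb1, Xbp1, Sdc1, Txndc5, Tnfsf13b, Cxcl13 and the fat-cell markers, were added after their values were seen. Overlapping genes lie on the opposite strand of Cd22, Cd72, Ebf1, Ms4a1 and Pax5, and the counting was not stated to use strand. The hepatocyte marker Tf was not analysed here. A few genes that the rule named are not reported here.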

Additional observations from a re-analysis of the deposited data

How the results depend on the processing

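The alternatives were DESeq2 size factors, scaling by library size alone, 2 other filters on low counts, the replicate number as a block, DESeq2's Wald test, a model fitted to the compared groups alone, and the removal of each mouse in turn. The quasi-likelihood method of edgeR 3, and all alternatives for the other gene lists, were added after seeing the data. For sgBap1-Veh against NTC-Veh the count of called genes among the 9 went from 1 to 0 by library size alone, with the replicate block and in a model of these groups alone, to 2 (Cd72 and Ighm) by DESeq2's Wald test, and to 0 to 1 with a mouse left out. For sgBap1-CCl4 against NTC-CCl4 it was 0 in every alternative. For NTC-CCl4 against NTC-Veh it was 2 to 7 with a mouse left out, against 5, and 4 to 7 otherwise. For sgBap1-CCl4 against sgBap1-Veh it was 1 to 2 with a mouse left out, 3 by library size alone (Cd79b, Cd72 and Ebf1), 2 with the replicate block, by DESeq2's Wald test and by the edgeR 3 method (Cd72 and Ebf1 in each), and 3 in a model of these groups alone (Cd72, Ighm and Jchain). For the interaction it was 2 by DESeq2's Wald test (Cd72 and Ighm) and 0 in all others. The cause of these shifts was not tested, and leaving out a mouse also made its group smaller.

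Signs turned for small estimates, given as log2 fold changes with the range over the removal of single mice. Ebf1 for sgBap1 with vehicle, 0.05 with all mice, ran from -0.42 (without sgBap1-Veh replicate 1) to 0.31 and was -0.065 without NTC-Veh replicate 2. For sgBap1 under CCl4, Pax5 ran from -0.40 to 0.16 (without NTC-CCl4 replicate 3), with 0.0096 without NTC-CCl4 replicate 1 and 0.049 without sgBap1-CCl4 replicate 3, and Ighm from -0.60 to 0.035 (without NTC-CCl4 replicate 1). Jchain for CCl4 in NTC livers ran from -0.0028 (without NTC-CCl4 replicate 3) to 0.62. For CCl4 in sgBap1 livers, Cd79a was 0.16, Ms4a1 0.28 and Pax5 0.34 by library size alone. There Ms4a1 ran from -0.40 to 0.13 and Pax5 from -0.42 to 0.30 (both highest without sgBap1-Veh replicate 1), and Cd22 from -0.037 (without sgBap1-Veh replicate 2) to 0.45. The summed V segments for sgBap1 under CCl4, -0.30 with all mice, ran from -0.63 to 0.0046 (without NTC-CCl4 replicate 3).

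No pairing by replicate number was seen: the correlation of deviations between mice of the same number was -0.149 to 0.102, over 0.1 in 2 of 13 pairs. In groups of 2 mice the deviations mirror each other, so these pairs are not independent and cannot exclude a shared batch or litter. With the replicate block Cd72 lost its call with vehicle (adjusted p = 0.0944) and Ebf1 gained one for CCl4 in sgBap1 livers (adjusted p = 0.0244 by edgeR's quasi-likelihood test). Over all genes the block changed the calls from 69 to 1 for sgBap1 with vehicle and from 56 to 24 under CCl4. DESeq2's Wald test called 551, 480 and 406 genes for sgBap1 with vehicle, sgBap1 under CCl4 and the interaction, against 69, 56 and 0. Library size alone made 80.5% and 78.3% of the calls for CCl4 in NTC and sgBap1 livers higher, against 50.8% and 50.9%.

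With 2 livers in each vehicle group, and with the labels giving no separate source for replicates beyond the mouse, p-values measure the spread between these mice. Low counts limit genes such as Ebf1 and Vpreb3.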
